A study of Mus musculus with 9 samples.

Results

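The Rab GTPases of ST2 cells, a line of mouse bone marrow stroma, are described here across 3 feeding conditions. The members were all rows of the mouse count table whose symbol was Rab followed by a number and at most a letter and a digit, with 10 or more counts in the 9 libraries together. This gave 49 genes out of 55453 rows, and 10 further Rab symbols lay below the count minimum. The ST2 cells carried no genetic change (genotype WT) and were either left alone or given 10 human neutrophils per ST2 cell, kept frozen 18 h or longer and dyed on their membranes. The groups, of 3 libraries each, were unfed ST2 cells at 24 h (Control), dye-positive ST2 cells sorted 3 h into feeding (fed 3 h) and dye-positive ST2 cells sorted at 24 h (fed 24 h). The fed libraries held only cells whose dye signal matched at least a whole neutrophil, so feeding and the selection of the engulfing fraction differ together and cannot be told apart. Unfed cells at 3 h are not analysed here, so in the comparison of fed 3 h with unfed cells feeding and the hour of collection cannot be told apart either. The labels number the replicates without saying that they were separate cultures, so the p-values measure the spread between these libraries, which may be technical.

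Rab proteins are small GTPases that mark the membranes of the cell. In the GTP-bound form each Rab sits on its own compartment and recruits effectors such as tethers, motors and lipid kinases. Exchange factors switch Rabs on, GTPase-activating proteins switch them off, and GDP dissociation inhibitors hold the inactive form in the cytosol. An engulfed cell passes through compartments of changing Rab identity, from RAB5 on the early phagosome to RAB7 on the late phagosome that fuses with lysosomes, while RAB11 and RAB35 return membrane to the surface. Other Rabs act in the secretory pathway (RAB1, RAB2, RAB6), in exocytosis (RAB3, RAB8, RAB27), at lysosome-related organelles and mitochondria (RAB32) or at the cilium (RAB23).

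ST2 cells expressed most of the family. Of the 49 members, 46 passed the expression filter and were tested; Rab25, Rab3b and Rab37 were too low, with 23, 16 and 47 counts in all 9 libraries. The member nearest the count minimum was Rab3b, and the nearest symbol below it was Rab3c, with 9 counts. Rab33a had 8 counts, Rab26 had 6 and Rab17 had 1. No count at all was recorded for 6 symbols (Rab9b, Rab15, Rab19, Rab38, Rab39 and Rab44), which at a total of 443314041 counts allows up to 0.00677 CPM (counts scaled to a common library total; 3 counts of all counts, counting error only). Rab38, the close relative of Rab32 that serves pigment granules, was thus not detectable at this depth. Summed over the 49 members, the family made up 3494, 3345 and 3399 CPM without feeding, 3445, 3308 and 3392 CPM after 3 h and 3353, 3324 and 3299 CPM after 24 h of feeding. The sums of all 3 groups overlapped.

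Levels of different genes were compared per length, as CPM per kb of merged exon in the unfed libraries. The highest was Rab1b, which with Rab1a directs traffic from the endoplasmic reticulum to the Golgi, at 141 ± 6.52 CPM per kb (SD, n = 3). Next came Rab7, of the late endosome and lysosome, at 105 ± 2.85, Rab5c, of the early endosome, at 94.9 ± 3.23, and Rab1a at 76.7 ± 2.51 CPM per kb. The libraries of these neighbours in the order did not overlap. Rab2a, which acts between the Golgi and the endoplasmic reticulum, followed at 64.1 ± 0.502 CPM per kb, and its libraries overlapped those of Rab10, of the exocytic route, at 63.0 ± 1.79 CPM per kb. Rab5c stood above its isoforms Rab5b (27.2 ± 1.79 CPM per kb) and Rab5a (9.77 ± 0.425 CPM per kb). In the middle of the order, the libraries of Rab6a, Rab9, Rab5b and Rab8a overlapped each with the next, as did those of Rab5a, Rab12, Rab24, Rab13, Rab29, Rab3d and Rab23. Rab27a, a Rab of secretory granules and exosomes, was at 2.65 ± 0.0965 CPM per kb and its isoform Rab27b at 0.244 ± 0.00967 CPM per kb.

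**Figure D1:**
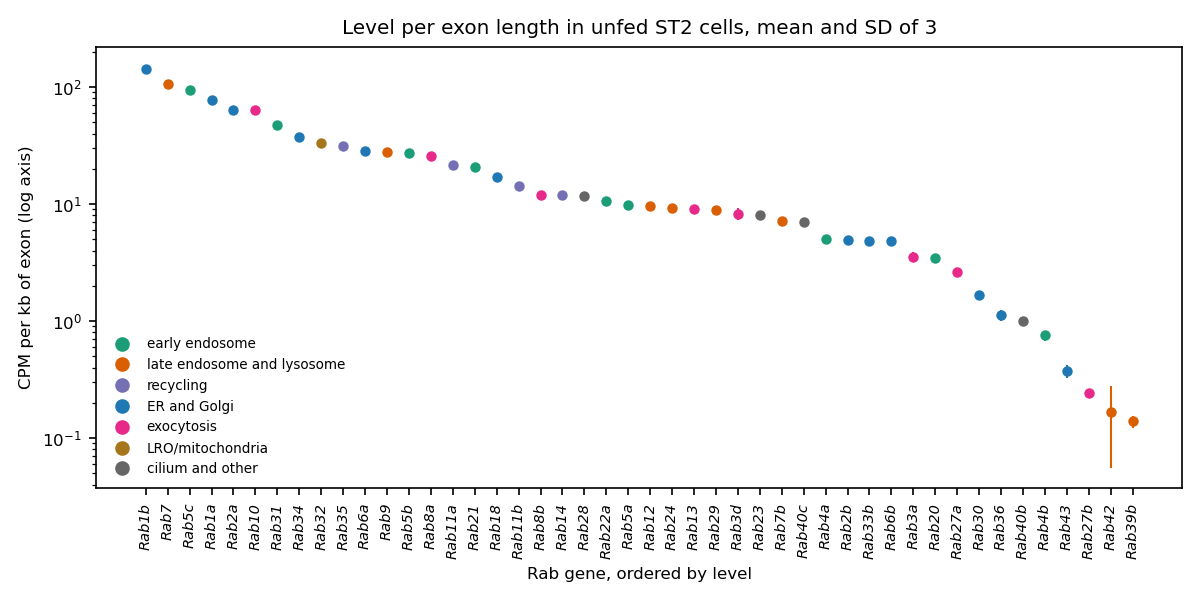
Level of the 46 tested Rab genes in unfed ST2 cells, in CPM per kb of merged exon on a log axis; points are means and bars SDs of 3 libraries, coloured by compartment. Rab1b, Rab7, Rab5c and Rab1a lead, and Rab27b, Rab42 and Rab39b are lowest.

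The libraries were of similar depth, 44442664 to 55971275 counts each. Of 10 stromal markers 9 were tested, and their summed level was 29449.7 to 31723 CPM in unfed, 25927 to 26580.4 CPM in fed 3 h and 32458 to 34194 CPM in fed 24 h libraries. Markers of macrophages and other leukocytes summed to 4.79 to 6.75, 4.57 to 5.31 and 7.64 to 9.59 CPM over 9 genes, with Adgre1, Fcgr1 and Tyrobp at 0 in every library. Mouse neutrophil markers summed to 2.32 to 2.95 CPM in unfed, 0.713 to 1.42 CPM in fed 3 h and 3.43 to 4.31 CPM in fed 24 h libraries over 10 genes, nearly all of it from Camp, with S100a9 and Ngp at 0 and S100a8 at 3 counts in all. The 5 endothelial markers summed to at most 0.189 CPM in any library. The table lists mouse genes, and whether reads of the human neutrophils were counted under mouse Rab genes was not tested. Mitochondrially encoded genes took 1.48 to 1.61% of the counts in unfed, 1.118 to 1.58% in fed 3 h and 1.78 to 2.22% in fed 24 h libraries, and 2 genes that collect ribosomal RNA reads took 0.0904 to 0.115%, 0.0927 to 0.249% and 0.201 to 0.350%. The part of these shifts in the results below was not tested.

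Promoter sequences are shown for 6 members, so that their letters can be set beside the expression values. Rab7, Rab21 and Rab23 were higher and Rab9 and Rab3d lower in fed 3 h cells. Rab5a, a core Rab of the early endosome, was not called at 3 h. Rab20, Rab13 and Rab3a changed more than Rab21 and are not shown. Windows of 250 bases before each start site were taken from RefSeq (GRCm38.p6), which held 41 of the 49 members, and bases inside the GENCODE gene model were left out of the print. Both strands were searched for the E-box CACGTG, for the CLEAR motif of the lysosomal regulator TFEB (that E-box with GT before and AC after it), for the AP-1 motif TGANTCA, for the cyclic AMP response element TGACGTCA and for an NF-kappaB motif (GGGA and TTTCC with 1 base between them). Each CLEAR match also counts as an E-box. The 6 members shown include every tested member with a CLEAR match and every one with an E-box outside its gene model. Their share of motifs is therefore not that of the family. Capitals mark the matches.
Rab21: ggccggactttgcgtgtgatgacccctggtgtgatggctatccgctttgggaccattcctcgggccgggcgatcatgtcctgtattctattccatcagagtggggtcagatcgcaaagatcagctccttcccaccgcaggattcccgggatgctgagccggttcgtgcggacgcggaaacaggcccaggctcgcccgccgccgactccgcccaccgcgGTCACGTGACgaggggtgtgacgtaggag
Rab23: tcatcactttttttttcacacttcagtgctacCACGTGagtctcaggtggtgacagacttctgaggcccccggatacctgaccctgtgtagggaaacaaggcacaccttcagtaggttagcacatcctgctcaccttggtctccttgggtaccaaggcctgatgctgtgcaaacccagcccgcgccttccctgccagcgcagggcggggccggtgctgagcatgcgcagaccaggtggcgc
Rab5a: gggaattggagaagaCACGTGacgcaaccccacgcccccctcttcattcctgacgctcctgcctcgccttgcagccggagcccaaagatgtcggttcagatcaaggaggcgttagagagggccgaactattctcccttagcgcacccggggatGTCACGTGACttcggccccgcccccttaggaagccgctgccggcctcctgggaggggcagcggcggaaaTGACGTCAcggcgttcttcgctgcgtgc
Rab7: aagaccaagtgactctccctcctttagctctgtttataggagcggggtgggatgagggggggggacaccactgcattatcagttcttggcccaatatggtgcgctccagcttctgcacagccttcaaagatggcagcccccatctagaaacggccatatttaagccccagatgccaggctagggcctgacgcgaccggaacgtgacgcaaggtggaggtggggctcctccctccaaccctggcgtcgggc
Rab9: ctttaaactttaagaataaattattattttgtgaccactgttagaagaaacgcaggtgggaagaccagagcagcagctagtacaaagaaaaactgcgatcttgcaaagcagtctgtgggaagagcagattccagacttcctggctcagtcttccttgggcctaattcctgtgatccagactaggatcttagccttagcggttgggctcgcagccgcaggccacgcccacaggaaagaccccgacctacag
Rab3d: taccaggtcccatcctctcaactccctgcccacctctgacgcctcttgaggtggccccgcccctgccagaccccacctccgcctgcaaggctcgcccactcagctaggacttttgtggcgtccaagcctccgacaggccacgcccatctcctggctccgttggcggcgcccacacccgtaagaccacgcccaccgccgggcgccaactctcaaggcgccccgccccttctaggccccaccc
The printed stretches are chr10:115315595-115315841 (minus strand) for Rab21, chr1:33719646-33719886 (plus strand) for Rab23, chr17:53478984-53479233 (plus strand) for Rab5a, chr6:88045271-88045520 (minus strand) for Rab7, chrX:166479868-166480117 (minus strand) for Rab9 and chr9:21918193-21918433 (minus strand) for Rab3d, each 5′ to 3′ on the gene's strand.

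The motif shares cover 48 windows, from 39 of the 46 tested members. Of these windows, 5 held an E-box (10.4%), against 6.02% of 32851 windows of all genes. Median GC content was 61.8% in the members' windows and 52.4% in all windows, and the shares were not adjusted for it. The CLEAR motif was in the windows of Rab21, beginning 32 bases before its start, and of Rab5a, beginning 97 bases before its start, and in 0.240% of all windows. Rab5a also held a cyclic AMP response element (in 1.55% of all windows). An AP-1 motif was found for Rab34 alone among the members (in 6.75% of all windows), and the NF-kappaB motif for none (in 0.356% of all windows). By the call at 3 h given below, an E-box stood in the windows of 3 of 7 higher members with a window (Rab20, Rab21 and Rab23), of 0 of 11 lower members and of 2 of 21 members that were not called (Rab5a and Rab27a). The CLEAR motif stood in 1 of 7 higher, 0 of 11 lower and 1 of 21 members not called. The AP-1 motif and the cyclic AMP response element each stood in 1 of the 21 members not called and in 0 of the others. Those counts are of genes, some with several windows, so the shares of all windows are not a like background for them. The split by call was not tested. The Rab20 and Rab27a matches lay inside the GENCODE gene models and are not printed. The Rab27a match was in a second window (chr9:73063898-73064147) that lay wholly inside the gene. These are matches of letters, with no measurement of binding.

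After 3 h of feeding, Rabs of the endocytic route moved in both directions. Rab7, Rab20, Rab21, Rab31 and Rab7b were higher than in unfed cells, whereas Rab9, Rab5b and Rab29 were lower. Of the exocytic Rabs, Rab3d, Rab3a, Rab13 and Rab8a were lower, and Rab10 and Rab8b were higher. The calls of Rab7b, Rab29, Rab10 and Rab8b ended on leaving out single libraries, as given below. Of the 46 tested members, 8 were higher (17.4%) and 12 lower (26.1%) at an adjusted p under 0.05 by the quasi-likelihood test of edgeR, with adjustment over all 13568 tested genes. Over all tested genes, 25.1% were higher and 25.5% lower, or 50.6% in either direction. The libraries of the 2 groups did not overlap in 10 members that were higher and 15 that were lower, beside 29.1% of all genes in each direction and 58.2% in either. Without regard to sign, the members' median log2 fold change was 0.15, beside 0.22 over all genes, and 3 members exceeded 0.5 (Rab40b, Rab3d and Rab9). Without unfed replicate 2, 5 members were higher. In bulk RNA, fewer cells of a type and less RNA per cell cannot be told apart.

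**Figure D2:**
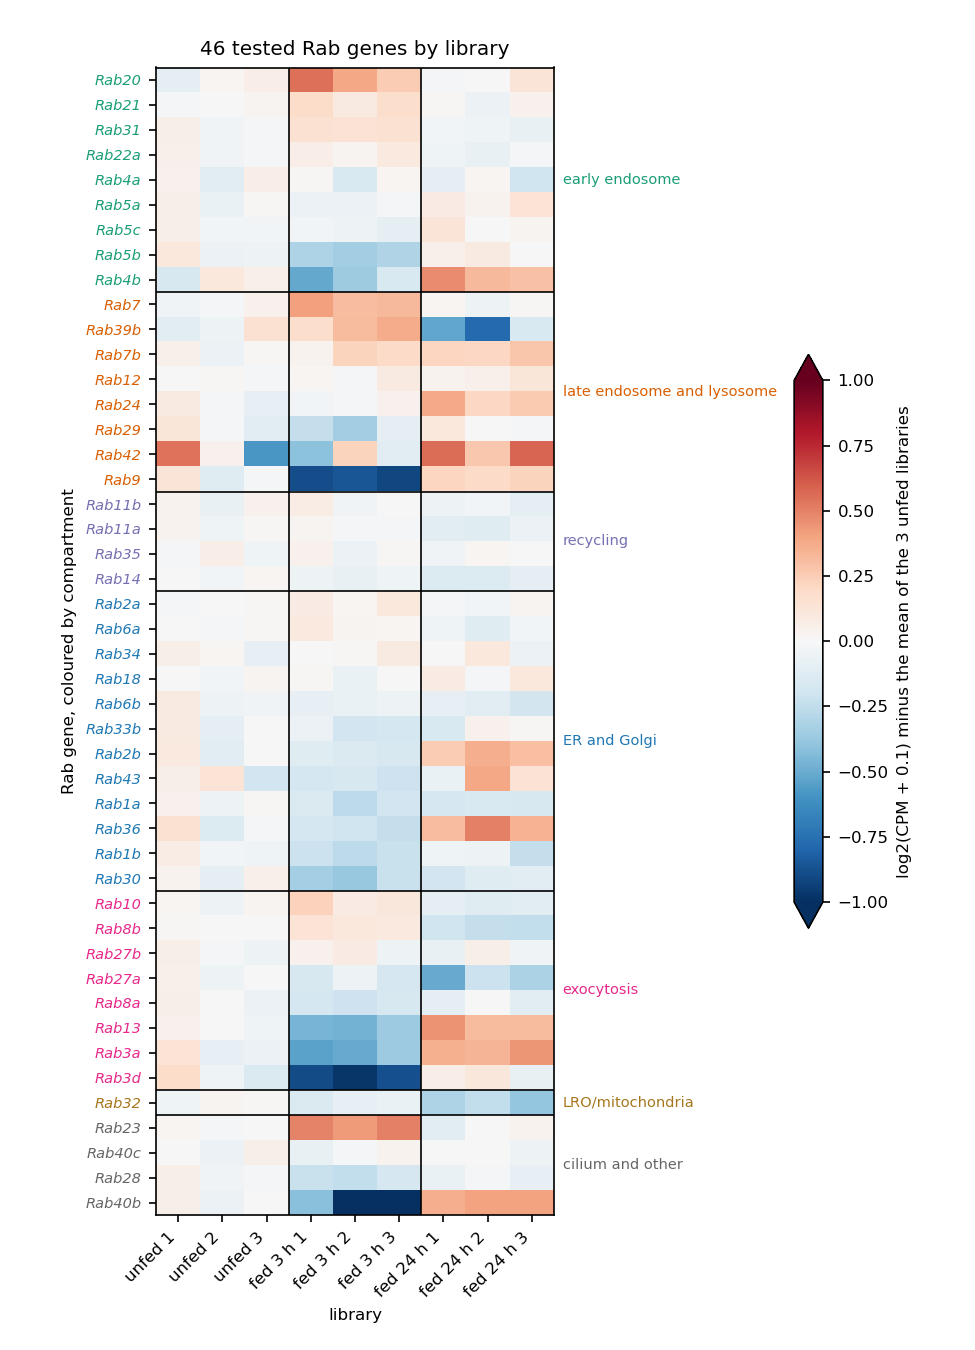
Each of the 46 tested Rab genes (rows, grouped and coloured by compartment) in each of the 9 libraries (columns), as log2(CPM + 0.1) minus the mean of the 3 unfed libraries; colours saturate at −1 and 1. Rab9, Rab3d and Rab40b are darkest blue in the fed 3 h libraries, and Rab13, Rab3a, Rab2b and Rab36 are red in the fed 24 h libraries. LRO stands for lysosome-related organelle.

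Among the Rabs of late endosomes and lysosomes, Rab7 (chr6:87999106-88045270; gene coordinates are those of GENCODE on GRCm38), whose product drives the maturation of phagosomes and their fusion with lysosomes, had 269, 273 and 283 CPM without feeding, 365, 341 and 344 CPM after 3 h and 279, 265 and 277 CPM after 24 h of feeding. All fed 3 h libraries lay above all others, and the fed 24 h libraries overlapped the unfed ones. The rise at 3 h was 27.2% (log2 fold change 0.35, SE 0.0436, adjusted p = 8.71e-06). Rab9 (chrX:166457253-166479867), which acts in transport from late endosomes to the trans-Golgi network, had 53.0, 44.8 and 48.3 CPM without feeding, 26.2, 26.8 and 25.8 CPM after 3 h and 56.5, 55.4 and 56.8 CPM after 24 h of feeding. The fed 3 h libraries were the lowest 3 of the 9, and the fed 24 h libraries were above every unfed one. Rab9 fell by 46.1% at 3 h (log2 fold change −0.89, SE 0.0572, adjusted p = 7.79e-09). A pseudogene copy, Rab7-ps1, had 147 counts in all libraries against 132414 for Rab7, and Rab9b-ps1, which shares sequence with Rab9, had 1.

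Rab7b, a distant relative of Rab7 that acts between endosomes and the trans-Golgi network, had 34.2, 31.8 and 33.5 CPM without feeding, 34.0, 38.7 and 37.9 CPM after 3 h and 38.4, 38.2 and 40.2 CPM after 24 h of feeding. It was higher at 3 h by a small margin (log2 fold change 0.15, SE 0.0558, adjusted p = 0.0320), although the libraries of the groups overlapped. Leaving out replicate 2 or 3 of unfed or replicate 2 or 3 of fed 3 h, dropping the filter on low counts or fitting only the 6 libraries ended that call (the alternatives spanned adjusted p = 0.00630 to 0.137). Rab29, which recruits the kinase LRRK2 to lysosomes and the Golgi, had 14.1, 12.8 and 11.98 CPM without feeding, 11.0, 10.1 and 12.1 CPM after 3 h and 13.9, 13.02 and 12.9 CPM after 24 h of feeding. Fed 3 h and unfed libraries overlapped, and the fall (log2 fold change −0.23, SE 0.0793, adjusted p = 0.0240) was no longer called once replicate 1 of unfed or replicate 1 or 2 of fed 3 h was left out (the alternatives spanned adjusted p = 0.00986 to 0.114). Rab24, linked to autophagy, and Rab12, which acts between recycling endosomes and lysosomes, were not called at 3 h (log2 −0.0027, adjusted p = 0.975 and log2 0.030, adjusted p = 0.639).

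In the early endosome group, 3 of 9 tested members were higher and 1 lower at 3 h, beside 25.1% higher and 25.5% lower of all genes. Rab20 (chr8:11453518-11478710), which acts on maturing phagosomes, had 4.55, 4.91 and 5.07 CPM without feeding, 7.13, 6.35 and 5.80 CPM after 3 h and 4.77, 4.82 and 5.29 CPM after 24 h of feeding. Its fed 3 h libraries were the highest 3 of the 9, with the widest spread of the 3 groups (log2 fold change 0.41, SE 0.104, adjusted p = 0.00396). Exons of Rab20 overlap those of E230013L22Rik on the other strand over 25.6% of their length. That gene had 244 counts in all and was not called (log2 −0.20, adjusted p = 0.623).

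Rab31, which carries cargo between the trans-Golgi network and endosomes, had 188, 176 and 178 CPM without feeding, 201, 200.01 and 200.3 CPM after 3 h and 178, 176 and 172 CPM after 24 h of feeding. The fed 3 h values were close to each other and all lay above the unfed ones (log2 fold change 0.15, SE 0.0402, adjusted p = 0.00580). Rab21, which escorts integrins through early endosomes, had 104, 105 and 107 CPM without feeding, 119, 112 and 119 CPM after 3 h and 106, 101 and 108 CPM after 24 h of feeding, with fed 3 h again above the other 6 (log2 fold change 0.15, SE 0.0431, adjusted p = 0.00820). Rab22a, a relative of Rab31, had 78.6, 74.2 and 75.0 CPM without feeding, 79.5, 77.5 and 81.2 CPM after 3 h and 73.5, 72.2 and 75.0 CPM after 24 h of feeding and was not called at 3 h (log2 0.064, adjusted p = 0.224).

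The 3 isoforms of Rab5, which recruit tethers and a lipid kinase to early endosomes, did not all pass the test. Rab5b (chr10:128677175-128696264) had 123, 109.7 and 110.0 CPM without feeding, 92.2, 89.5 and 92.7 CPM after 3 h and 118, 121 and 115 CPM after 24 h of feeding. The fed 3 h libraries were the lowest 3 of the 9, and Rab5b fell by 19.9% (log2 fold change −0.32, SE 0.0484, adjusted p = 5.36e-05). Rab5a had 53.5, 49.1 and 51.8 CPM without feeding, 49.4, 49.3 and 50.7 CPM after 3 h and 54.5, 52.7 and 56.5 CPM after 24 h of feeding, and Rab5c had 216, 204 and 204 CPM without feeding, 205, 201 and 195 CPM after 3 h and 228, 208 and 212 CPM after 24 h of feeding. Both overlapped between fed 3 h and unfed cells and were not called (Rab5a log2 −0.048, adjusted p = 0.422, Rab5c log2 −0.057, adjusted p = 0.316). A pseudogene that shares sequence with Rab5b, Gm13991, had 19 counts in all libraries.

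No Rab of the recycling group was called at 3 h by edgeR (50.6% of all genes) or by DESeq2, and 0 of the 4 tested members had an unadjusted p under 0.05. Rab11a, the main Rab of recycling endosomes, had 65.4, 61.9 and 64.2 CPM without feeding, 65.1, 63.2 and 63.3 CPM after 3 h and 59.1, 58.8 and 61.2 CPM after 24 h of feeding. Its fed 3 h libraries lay inside the unfed range (log2 0.00070, adjusted p = 0.990). Rab11b (log2 0.011, adjusted p = 0.861), Rab14 (log2 −0.057, adjusted p = 0.231) and Rab35 (log2 −0.0017, adjusted p = 0.978) were not called either.

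Of 8 tested Rabs of exocytosis, 2 were higher and 4 lower at 3 h, beside the same 25.1% and 25.5% of all genes. Rab3d (chr9:21907491-21918192), a Rab of secretory granules in non-neuronal cells, had 39.3, 33.5 and 31.3 CPM without feeding, 18.5, 17.6 and 18.7 CPM after 3 h and 36.1, 37.4 and 32.7 CPM after 24 h of feeding. The fed 3 h libraries were the lowest 3 of the 9, whereas fed 24 h and unfed libraries overlapped. Rab3d fell by 47.3% at 3 h (log2 fold change −0.92, SE 0.0774, adjusted p = 1.30e-07). Its relative Rab3a, best known from synaptic vesicles, had 8.69, 7.48 and 7.60 CPM without feeding, 5.43, 5.55 and 6.14 CPM after 3 h and 10.2, 10.1 and 10.8 CPM after 24 h of feeding. The 3 groups were fully separated, with fed 3 h lowest and fed 24 h highest (at 3 h log2 fold change −0.47, SE 0.0878, adjusted p = 3.42e-04).

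Rab13, which delivers membrane proteins to cell junctions and the leading edge, had 21.3, 20.7 and 20.0 CPM without feeding, 14.9, 14.9 and 15.99 CPM after 3 h and 28.2, 25.7 and 25.7 CPM after 24 h of feeding. Its groups were separated in the same order as those of Rab3a (at 3 h log2 fold change −0.44, SE 0.0591, adjusted p = 1.85e-05). Rab8a, which acts in transport from the Golgi and recycling endosomes to the surface, had 125, 120.4 and 116 CPM without feeding, 107, 104 and 108 CPM after 3 h and 113, 121 and 111 CPM after 24 h of feeding. It was lower at 3 h without overlap (log2 fold change −0.18, SE 0.0451, adjusted p = 0.00355). Its close relative Rab8b had 56.8, 56.2 and 56.3 CPM without feeding, 62.2, 60.6 and 60.3 CPM after 3 h and 49.1, 47.8 and 47.5 CPM after 24 h of feeding. Rab8b was highest in the fed 3 h and lowest in the fed 24 h libraries (at 3 h log2 fold change 0.11, SE 0.0411, adjusted p = 0.0311). Leaving out replicate 2 or 3 of unfed or replicate 1 or 2 of fed 3 h, or dropping the filter, ended the 3 h call of Rab8b (the alternatives spanned adjusted p = 0.0243 to 0.0834).

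Rab10, needed for surface delivery of glucose transporters among other cargo, had 224, 214 and 226 CPM without feeding, 259, 234 and 239.9 CPM after 3 h and 207, 203 and 206 CPM after 24 h of feeding. The 3 groups did not overlap, with fed 3 h highest (log2 fold change 0.14, SE 0.0450, adjusted p = 0.0150), but leaving out replicate 2 of unfed or replicate 1 of fed 3 h ended the 3 h call (the alternatives spanned adjusted p = 0.00410 to 0.0743). Neither Rab27a, with 10.7, 9.91 and 10.2 CPM in unfed and 9.16, 9.92 and 9.11 CPM in fed 3 h libraries, nor Rab27b, with 2.72, 2.59 and 2.51 and 2.68, 2.76 and 2.52 CPM, was called at 3 h (log2 −0.13, adjusted p = 0.213 and log2 0.026, adjusted p = 0.879).

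In the secretory pathway, 3 of 12 tested members were lower at 3 h, a share near the 25.5% of all genes. By edgeR 0 were higher (25.1% of all genes), with 0 also higher by DESeq2 and 0 at an unadjusted p under 0.05. Rab1a had 299.7, 281 and 294 CPM without feeding, 263, 243 and 255 CPM after 3 h and 259.9, 263 and 261 CPM after 24 h of feeding. The unfed libraries were the highest 3 of the 9 (log2 fold change −0.20, SE 0.0429, adjusted p = 0.00109). Rab1b had 338, 315 and 311 CPM without feeding, 277, 268 and 275 CPM after 3 h and 311, 310.2 and 273 CPM after 24 h of feeding, with unfed libraries again highest (log2 fold change −0.23, SE 0.0529, adjusted p = 0.00169). Rab30, a Rab of the Golgi, had 16.6, 15.2 and 16.8 CPM without feeding, 12.8, 12.4 and 13.9 CPM after 3 h and 14.2, 14.9 and 15.0 CPM after 24 h of feeding, with unfed highest and fed 3 h lowest (log2 fold change −0.31, SE 0.0641, adjusted p = 8.02e-04).

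Outside these routes, Rab23 (chr1:33719887-33742564), an inhibitor of Hedgehog signalling at the cilium, had 66.8, 65.4 and 66.1 CPM without feeding, 93.3, 88.6 and 94.0 CPM after 3 h and 61.1, 66.4 and 67.7 CPM after 24 h of feeding. All fed 3 h libraries were well above the other 6, which overlapped each other, and the rise at 3 h was 39.2% (log2 fold change 0.48, SE 0.0469, adjusted p = 7.21e-07). Rab28, a Rab of cilia and photoreceptors, was lower (log2 fold change −0.21, SE 0.0460, adjusted p = 0.00122). Rab40b, a substrate receptor of a ubiquitin ligase, showed the largest log2 fold change of the members but lay below the 5 CPM used for choosing named genes, and it is given here because of its value. It had 2.11, 1.93 and 2.02 CPM without feeding, 1.49, 0.696 and 0.659 CPM after 3 h and 2.63, 2.696 and 2.703 CPM after 24 h of feeding, with fed 3 h replicate 1 far above the other 2 fed 3 h libraries and still below every unfed one (log2 fold change −1.09, SE 0.235, adjusted p = 0.00116). Rab32, which anchors protein kinase A at mitochondria and acts in their fission, had 76.1, 79.7 and 79.1 CPM without feeding, 70.9, 74.1 and 74.6 CPM after 3 h and 63.1, 66.0 and 59.7 CPM after 24 h of feeding, and at 3 h it was not called although the groups did not overlap (log2 −0.10, adjusted p = 0.0943).

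**Figure D3:**
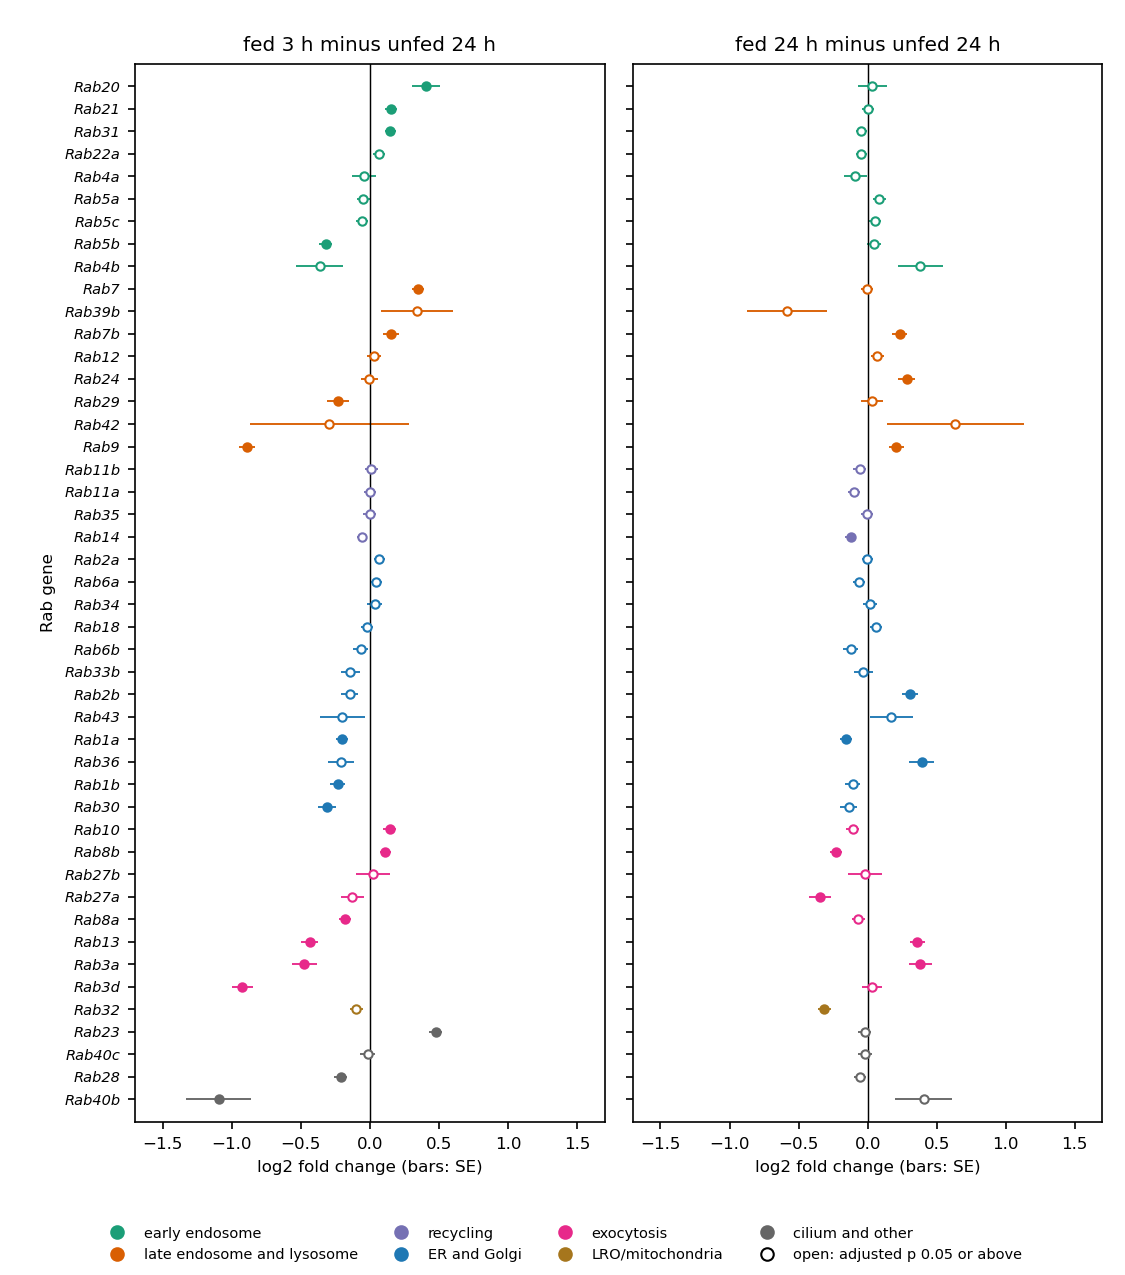
Log2 fold change against unfed 24 h cells for each of the 46 tested Rab genes after 3 h (left) and 24 h (right) of feeding, with bars of 1 SE; filled points passed an adjusted p under 0.05 and colours give the compartment. Both panels share the unfed libraries. At 3 h 8 points are filled on the right of 0 and 12 on the left, at 24 h 7 and 5.

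After 24 h of feeding, set against unfed cells of the same hour, 12 Rabs were called, each with a log2 fold change under 0.4 in size. Rab36, Rab3a, Rab13, Rab2b, Rab24, Rab7b and Rab9 were higher, whereas Rab27a, Rab32, Rab8b, Rab1a and Rab14 were lower. The 7 higher members were 15.2% and the 5 lower members 10.9% of the 46 tested, beside 14.9% higher, 15.9% lower and 30.8% either way over all tested genes. The median absolute log2 fold change was 0.087 for the members and 0.14 for all genes. The members exceeding 0.5 were Rab42 and Rab39b, both under 1 CPM and not called. The 2 groups did not overlap in 10 members that were higher and 12 that were lower in fed cells, beside 21.3% and 22% of all genes, or 43.2% in either direction.

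The Rabs of late endosomes and lysosomes had 3 of 8 tested members higher at 24 h and 0 lower by edgeR, beside 14.9% and 15.9% of all genes. By DESeq2 0 were lower, and 0 were lower at an unadjusted p under 0.05. Rab24 had 19.7, 18.4 and 17.4 CPM without feeding, 18.1, 18.3 and 19.0 CPM after 3 h and 24.1, 21.3 and 22.2 CPM after 24 h of feeding. All fed 24 h libraries exceeded the others (log2 fold change 0.28, SE 0.0622, adjusted p = 0.00320). The exons of Rab24 overlap those of Prelid1 on the other strand over 62.4% of their length, and Prelid1, at 443 ± 13.8 CPM in unfed and 422 ± 13.8 CPM in fed 24 h cells, was not called (log2 −0.072, adjusted p = 0.230). Rab7b, with the library values given above, was higher at 24 h without overlap (log2 fold change 0.23, SE 0.0555, adjusted p = 0.00548). Rab9 was higher by 15.5% (log2 fold change 0.21, SE 0.0548, adjusted p = 0.00980), which leaving out replicate 2 of unfed ended (the alternatives spanned adjusted p = 6.32e-04 to 0.0533). Rab7 showed no call (log2 −0.0066, adjusted p = 0.927).

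In the early endosome group 0 of 9 members were called at 24 h by edgeR (30.8% of all genes), 0 by DESeq2, and 1 had an unadjusted p under 0.05. Rab5a, Rab5b and Rab5c had log2 fold changes of 0.084 (SE 0.0469), 0.047 (SE 0.0480) and 0.053 (SE 0.0455). In the recycling group, Rab14, which acts between the Golgi, endosomes and phagosomes, had 162, 158 and 163 CPM without feeding, 155, 153 and 156 CPM after 3 h and 147, 146 and 150.1 CPM after 24 h of feeding. The fed 24 h libraries were the lowest 3 (log2 fold change −0.12, SE 0.0381, adjusted p = 0.0223), but leaving out replicate 3 of unfed or replicate 1 of fed 24 h ended the call (the alternatives spanned adjusted p = 0.00906 to 0.0907). Rab11a was lower without overlap and not called (log2 −0.10, adjusted p = 0.0955).

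Exocytic Rabs again moved in both directions at 24 h. Rab3a was higher by 30.3% (log2 fold change 0.38, SE 0.0832, adjusted p = 0.00304) and Rab13 by 28.3% (log2 fold change 0.36, SE 0.0567, adjusted p = 3.11e-04). Rab27a (chr9:73044854-73097629), which docks secretory granules and exosome-bearing endosomes at the surface, had 10.7, 9.91 and 10.2 CPM without feeding, 9.16, 9.92 and 9.11 CPM after 3 h and 7.20, 8.80 and 8.20 CPM after 24 h of feeding. The fed 24 h libraries were all below the unfed ones, with replicate 1 lowest (log2 fold change −0.34, SE 0.0825, adjusted p = 0.00551). Rab27b had 2.72, 2.59 and 2.51 CPM without feeding, 2.68, 2.76 and 2.52 CPM after 3 h and 2.47, 2.71 and 2.53 CPM after 24 h of feeding, all overlapping, and was not called (log2 −0.018, adjusted p = 0.932). Rab8b was lower by 14.7% (log2 fold change −0.23, SE 0.0413, adjusted p = 8.35e-04), and Rab3d, at 34.7 ± 4.13 CPM in unfed and 35.4 ± 2.43 CPM in fed 24 h cells (SD, n = 3 each), was not called (log2 0.030, adjusted p = 0.787).

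Rab32 (chr10:10545002-10558265) was lower by 19.6% in fed 24 h cells (log2 fold change −0.32, SE 0.0467, adjusted p = 1.98e-04). The 3 groups formed a sequence with unfed highest and fed 24 h lowest, and the libraries of neighbouring groups did not overlap. Of the Golgi Rabs, Rab36, which with Rab34 acts on the placement of late endosomes and lysosomes, had 7.68, 6.25 and 6.83 CPM without feeding, 6.10, 6.004 and 5.84 CPM after 3 h and 8.55, 9.80 and 8.80 CPM after 24 h of feeding. The fed 24 h libraries were the highest 3 (log2 fold change 0.39, SE 0.0909, adjusted p = 0.00465). Rab2b had 21.9, 18.9 and 20.5 CPM without feeding, 18.7, 18.4 and 18.2 CPM after 3 h and 24.3, 26.3 and 25.1 CPM after 24 h of feeding and was likewise highest in fed 24 h cells (log2 fold change 0.31, SE 0.0590, adjusted p = 0.00137). Exons of Rab2b overlap those of Tox4 and Gm43766 on the other strand over 64.0% of their length, and Tox4 was lower at 24 h (log2 fold change −0.15, SE 0.0397, adjusted p = 0.00934). Rab1a was lower by 10.4% (log2 fold change −0.16, SE 0.0428, adjusted p = 0.0110).

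**Figure D4:**
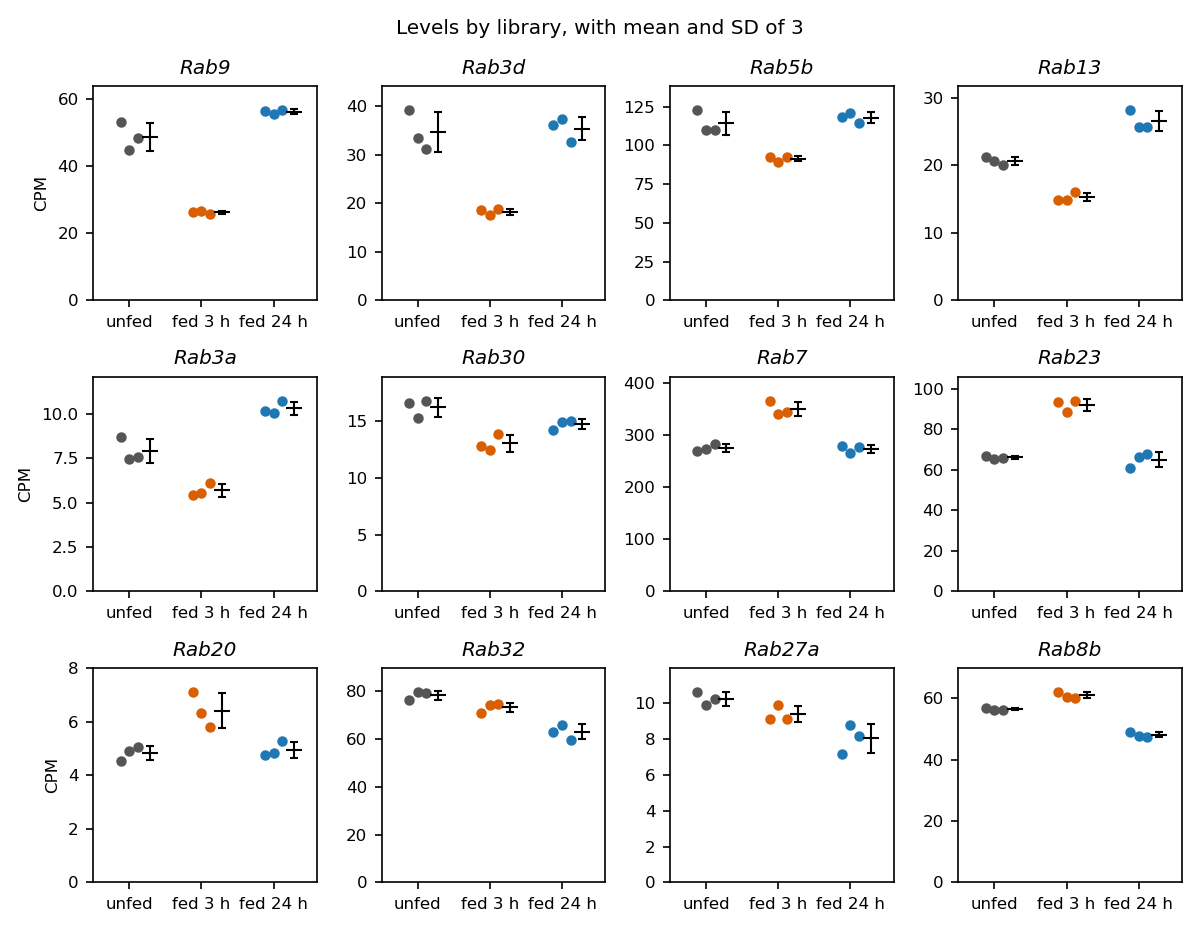
CPM of 12 Rab genes in each library (points) with the mean and SD of 3 beside them, on linear axes from 0. In Rab9, Rab3d, Rab5b, Rab13, Rab3a and Rab30 the fed 3 h libraries are lowest, in Rab7, Rab23 and Rab20 they are highest, and in Rab32, Rab27a and Rab8b the fed 24 h libraries are lowest.

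The direct comparison of both fed groups tests whether the 2 hours differ. Time since feeding, the hour of collection and the dye-positive cells sorted differ together in it and cannot be told apart. This comparison shares its libraries with those above and is not independent of them. Of the 46 members, 16 were higher (34.8%) and 12 lower (26.1%) in fed 24 h than in fed 3 h cells, beside 30.8% and 30.2% of all genes, or 60.9% in either direction. The groups did not overlap in 18 higher and 14 lower members, beside 33.3% and 32.6% of all genes, or 65.9% in either direction. Rab9 was 114% higher at 24 h than at 3 h (log2 fold change 1.10, SE 0.0568, adjusted p = 3.23e-10) and Rab3d 93.7% higher (log2 fold change 0.95, SE 0.0769, adjusted p = 3.81e-08). Rab3a (log2 0.85, SE 0.0855), Rab13 (log2 0.80, SE 0.0579), Rab36 (log2 0.60, SE 0.0919) and Rab2b (log2 0.45, SE 0.0594) were the next among members above 5 CPM. Rab23 (log2 −0.50, SE 0.0468), Rab20 (log2 −0.37, SE 0.102), Rab7 (log2 −0.35, SE 0.0436), Rab8b (log2 −0.34, SE 0.0411), Rab10 (log2 −0.25, SE 0.0450) and Rab32 (log2 −0.22, SE 0.0467) were lower at 24 h than at 3 h, with the largest falls in that order among members above 5 CPM. Of the endosomal Rabs not called at 3 h against unfed cells, Rab5a (log2 0.13, SE 0.0469) and Rab5c (log2 0.11, SE 0.0456) were higher and Rab22a (log2 −0.11, SE 0.0422) lower. Larger changes among these were those of Rab24 (log2 0.29, SE 0.0621) and, below 5 CPM, of Rab4b (log2 0.74, SE 0.165), which acts in fast recycling, and Rab39b (log2 −0.92, SE 0.276). Of the 28 calls, 20 held under every alternative in which the gene was tested (Rab39b did not pass the stricter filter). The other 8 ended on leaving out any one of the following libraries: replicate 1 or 2 of fed 3 h or replicate 3 of fed 24 h for Rab5a (highest adjusted p = 0.0768), replicate 1 or 2 or 3 of fed 3 h or replicate 1 of fed 24 h for Rab5c (0.196) and replicate 1 or 3 of fed 3 h or replicate 1 or 2 of fed 24 h for Rab22a (0.108). For Rab6a they were replicate 1 of fed 3 h or replicate 1 or 2 of fed 24 h (0.121), for Rab8a replicate 1 or 2 or 3 of fed 3 h or replicate 2 of fed 24 h (0.163) and for Rab27a replicate 2 of fed 3 h or replicate 1 or 3 of fed 24 h (0.194). For Rab29 it was replicate 2 of fed 3 h (0.0534), and for Rab30 they were replicate 1 or 2 of fed 3 h or replicate 2 or 3 of fed 24 h (0.115). Other settings also ended some of these calls: the replicate number as a block for Rab8a, no filter for Rab6a, Rab22a and Rab27a, DESeq2 size factors for Rab5c and the DESeq2 Wald test for Rab30.

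Relatives that carry the same number often share a membrane, so their count ratio was followed library by library. The ratio needs no scaling between libraries. There were 13 pairs and 3 comparisons, and with 3 libraries against 3 an exact two-sided permutation test cannot go below p = 0.1, which is 0.162 after adjustment over the 39 tests. No pair can therefore pass a threshold, and the values are given as they are. The pairs were set up after the library values were known.

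Rab8a to Rab8b stood at 2.21, 2.14 and 2.05 without feeding, 1.72, 1.72 and 1.79 after 3 h and 2.30, 2.52 and 2.34 after 24 h. The ratio was lowest at 3 h and highest at 24 h, with no overlap between any groups. Rab5a to Rab5b stood at 0.435, 0.447 and 0.471 without feeding, 0.535, 0.551 and 0.547 after 3 h and 0.462, 0.435 and 0.493 after 24 h. Fed 3 h libraries were above the other 6 (difference on the log2 scale 0.27, exact permutation p = 0.1), whereas Rab5a to Rab5c was 0.247, 0.241 and 0.254 in unfed and 0.241, 0.246 and 0.260 in fed 3 h libraries and overlapped. Rab2a to Rab2b stood at 6.21, 7.22 and 6.73 without feeding, 7.72, 7.51 and 8.05 after 3 h and 5.58, 5.09 and 5.56 after 24 h, highest at 3 h and lowest at 24 h.

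Rab7 to Rab7b stood at 7.85, 8.60 and 8.47 without feeding, 10.7, 8.81 and 9.07 after 3 h and 7.27, 6.93 and 6.90 after 24 h. It was highest at 3 h and lowest at 24 h without overlap. Rab27a to Rab27b stood at 3.92, 3.83 and 4.07 without feeding, 3.41, 3.59 and 3.62 after 3 h and 2.91, 3.24 and 3.24 after 24 h, in falling order from unfed to fed 24 h. Rab3a to Rab3d was 0.221, 0.223 and 0.243 in unfed and 0.293, 0.316 and 0.327 in fed 3 h libraries, without overlap. The largest shifts were those of Rab40b to Rab40c. That ratio stood at 0.0966, 0.0922 and 0.0886 without feeding and 0.0716, 0.0320 and 0.0295 after 3 h. After 24 h it was 0.120, 0.124 and 0.128, and no groups overlapped. The ratios Rab11a to Rab11b, Rab1a to Rab1b and Rab5a to Rab5c overlapped between all groups.

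**Figure D5:**
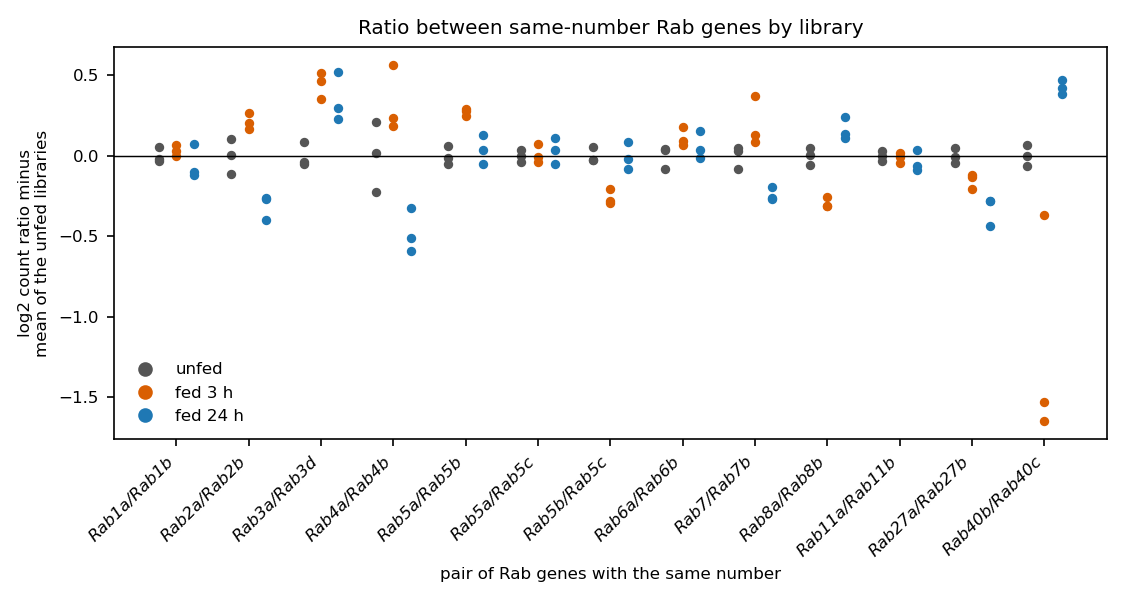
Log2 count ratio of 13 pairs of same-number Rab genes in each library, minus the mean of the 3 unfed libraries. Points of the groups lie apart for Rab8a/Rab8b, Rab7/Rab7b, Rab2a/Rab2b, Rab27a/Rab27b and Rab40b/Rab40c, with the largest shifts in Rab40b/Rab40c. They mix for Rab1a/Rab1b, Rab5a/Rab5c and Rab11a/Rab11b.

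Rabs depend on proteins that load, unload and read them. A list of 138 such genes (8 of membrane extraction and prenylation, 33 exchange factors, 39 GTPase-activating proteins and 58 effectors) had 124 tested members. After 3 h, 30 were higher (24.2%) and 32 lower (25.8%), beside the 25.1% and 25.5% of all genes. Their median log2 fold change was −0.012 and that of all genes −0.0085. GTPase-activating proteins had 6 of 38 higher and 18 lower, exchange factors 10 of 30 higher and 6 lower, and effectors 12 of 48 higher and 5 lower.

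Eea1, the RAB5 effector that tethers early endosomes, had 88.7, 100.4 and 108 CPM without feeding, 193, 172 and 166 CPM after 3 h and 118, 105 and 132 CPM after 24 h of feeding. Its fed 3 h libraries were far above the other 6 (log2 fold change 0.84, SE 0.0816, adjusted p = 6.49e-07). Rin1, an exchange factor for RAB5, had 85.1, 107 and 95.6 CPM without feeding, 154, 140.2 and 144 CPM after 3 h and 85.1, 87.7 and 88.8 CPM after 24 h of feeding, again highest at 3 h (log2 fold change 0.60, SE 0.0650, adjusted p = 1.88e-06). Rab3il1, an exchange factor described for RAB3 and RAB8, had 10.2, 9.70 and 9.98 CPM without feeding, 5.03, 6.31 and 7.21 CPM after 3 h and 11.8, 11.2 and 11.8 CPM after 24 h of feeding and fell at 3 h (log2 fold change −0.68, SE 0.102, adjusted p = 4.58e-05). Madd, the exchange factor of RAB3 and RAB27, had 20.2, 20.8 and 21.9 CPM without feeding, 13.2, 15.2 and 14.8 CPM after 3 h and 21.9, 21.1 and 21.9 CPM after 24 h of feeding and fell as well (log2 fold change −0.54, SE 0.0625, adjusted p = 3.95e-06).

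Other effectors that were higher at 3 h included Ehbp1l1 (log2 0.69, SE 0.0597) and Micall1 (log2 0.66, SE 0.0781), which bind RAB8 and RAB10 family members, whereas Ehbp1 (log2 −0.47, SE 0.0575), Rilpl2 (log2 −0.43, SE 0.0554) and Micall2 (log2 −0.37, SE 0.0495) were lower. Mon1b, of the complex that exchanges RAB5 for RAB7 on phagosomes, was lower (log2 −0.32, SE 0.0539), its partner Ccz1 was higher (log2 0.17, SE 0.0440) and the alternative subunit Mon1a was not called (log2 −0.057, adjusted p = 0.524). Among exchange factors Rab3ip (log2 0.35, SE 0.0528), which activates RAB8, and Dennd4a (log2 0.31, SE 0.0590), which activates RAB10, were higher. Among called GTPase-activating proteins whose higher group mean reached 5 CPM, the largest rises were those of Tbc1d1 (log2 0.36, SE 0.0470), Usp6nl (log2 0.32, SE 0.0523), which acts on RAB5, and Tbc1d15 (log2 0.29, SE 0.0420), which acts on RAB7 at mitochondria. Tbc1d13 (log2 −0.55, SE 0.0513), Evi5l (log2 −0.44, SE 0.0624) and Tbc1d4 (log2 −0.44, SE 0.0614) had the largest falls under the same limit, whereas Tbc1d30 (log2 −2.19, SE 0.338), Tbc1d8 (log2 −0.86, SE 0.282) and Tbc1d16 (log2 0.47, SE 0.177), all below it, showed larger changes and are named because of their values. The calls of Tbc1d8 and Tbc1d16 ended on leaving out replicate 2 of unfed or replicate 2 or 3 of fed 3 h (highest adjusted p = 0.0886) and replicate 1 or 2 of unfed or replicate 1 of fed 3 h (0.239). Of the proteins that extract or lipidate Rabs, Rabggtb, a subunit of the enzyme that adds the lipid anchor, was higher (log2 0.33, SE 0.0419), as was the escort protein gene Chml (log2 0.21, SE 0.0600). The GDP dissociation inhibitor gene Gdi2 (log2 −0.17, SE 0.0461) and the Rab-binding chaperone Rabif (log2 −0.24, SE 0.0582) were lower.

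At 24 h the same list had 32 higher (25.8%) and 8 lower (6.45%) than in unfed cells, beside 14.9% and 15.9% of all genes. The median was 0.060, and −0.0013 over all genes. Effectors made up most of the rises, with 21 of 48 higher and 2 lower. The count of lower genes fell to 5 without unfed replicate 2 and to 4 without unfed replicate 3 or fed 24 h replicate 1. Fyco1, a RAB7 effector that moves autophagosomes along microtubules, had 41.7, 39.8 and 47.2 CPM without feeding, 41.5, 43.3 and 40.0 CPM after 3 h and 55.5, 57.9 and 62.4 CPM after 24 h of feeding. All fed 24 h libraries exceeded the others (log2 fold change 0.45, SE 0.0626, adjusted p = 1.32e-04).

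Appl2, a RAB5 effector of signalling endosomes, had 22.2, 19.9 and 21.3 CPM without feeding, 21.5, 20.7 and 21.4 CPM after 3 h and 28.3, 27.5 and 30.6 CPM after 24 h of feeding. Its fed 24 h libraries were the highest 3 (log2 fold change 0.45, SE 0.0578, adjusted p = 7.52e-05), whereas its relative Appl1 was lower (log2 fold change −0.14, SE 0.0444, adjusted p = 0.0272). Golga4, a tether of the trans-Golgi network, was higher (log2 0.44, SE 0.0806). Of the exchange factors, Rin2 (log2 0.33, SE 0.0644), which acts on RAB5, and Hps1 (log2 0.20, SE 0.0498), of the complex that activates RAB32 and RAB38, were higher. Rab3ip (log2 −0.24, SE 0.0536), Ankrd27 (log2 −0.15, SE 0.0495), which activates RAB21, and Gapvd1 (log2 −0.15, SE 0.0399) were lower. GTPase-activating proteins had 8 of 38 higher, led by Evi5l (log2 0.31, SE 0.0605), Rab3gap2 (log2 0.26, SE 0.0467) and Rabgap1 (log2 0.21, SE 0.0498), and 2 lower, Tbc1d25 (log2 −0.36, SE 0.0624) and Tbc1d20 (log2 −0.15, SE 0.0409). The escort protein gene Chml was lower (log2 fold change −0.18, SE 0.0607, adjusted p = 0.0364). Several of these calls depended on single libraries. They ended on leaving out replicate 2 or 3 of unfed or replicate 1 or 2 of fed 24 h for Appl1 (highest adjusted p = 0.122), replicate 2 or 3 of unfed or replicate 1 or 2 of fed 24 h for Ankrd27 (0.141) and replicate 1 of fed 24 h for Gapvd1 (0.0599). The same held for Tbc1d20 with replicate 3 of unfed or replicate 3 of fed 24 h (0.0657) and for Chml with replicate 2 or 3 of unfed or replicate 1 or 2 or 3 of fed 24 h (0.185). The Chml call also ended with the replicate number as a block, with the DESeq2 Wald test, without the filter and in the fit of 6 libraries.

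Between the fed groups, 47 of the 124 genes were higher (37.9%) and 30 lower (24.2%) at 24 h than at 3 h, beside 30.8% and 30.2% of all genes. Rab3il1 (log2 0.91, SE 0.09997), Evi5l (log2 0.75, SE 0.0616), Ehbp1 (log2 0.69, SE 0.0568), Madd (log2 0.58, SE 0.0620) and Tbc1d2b (log2 0.56, SE 0.0470) were among those higher. Rubcnl, which binds the autophagic lipid kinase complex (log2 −1.01, SE 0.131), Rin1 (log2 −0.74, SE 0.0650), Exoc6, an exocyst subunit (log2 −0.65, SE 0.104), Ehbp1l1 (log2 −0.62, SE 0.0596) and Rab3ip (log2 −0.59, SE 0.0530) were among those lower.

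Some member counts are uncertain because of their neighbours. The strand setting of the counting is not given in the sources used here, so reads of Rab24 and Prelid1, of Rab2b and Tox4 and of Rab6a and Mrpl48 cannot be told apart where their exons overlap. Rab43 and Rab4b share most of their exon length on the same strand with the gene models Gm45140 and Gm21983, which had 2 and 0 counts in all. Of the 50-base stretches in Rab7 transcripts, 12.7% also occur in transcripts of other genes, and the share was 13.6% for Rab11b, 9.80% for Rab5b and 6.201% for Rab9. For Rab3d, Rab13, Rab21, Rab23, Rab31, Rab32, Rab1a, Rab1b and Rab5c no such stretch was shared.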

How the data were processed

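Messenger RNA of 9 ST2 libraries was read from a table of raw counts per mouse gene symbol as the authors deposited it, without normalization or pooling. The submitters' processing notes name MultiQC 1.7, featureCounts, Subread 1.6.4 and STAR 2.7.0f, with the builds GRCh38.p13 and GRCm38.p6. How both genomes, the strand and multiply mapped reads were handled is not given in the sources used here, and the labels disagree on the library kit.

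All 9 libraries entered one fit of edgeR 4.0.16 (R 4.3.3) with TMM factors, filterByExpr (13568 genes) and the quasi-likelihood test, with Benjamini-Hochberg adjustment over all genes, and calls were made below an adjusted p of 0.05. CPM used TMM-scaled totals. Fold changes carry edgeR's small prior count, and the SE was taken from the test statistic. The procedure was tested on simulated data for fed 24 h against unfed cells only. Far fewer genes were changed there than were called here, so the simulation does not cover the other comparisons or shifts this broad. Lengths and coordinates came from GENCODE M21 (GRCm38). Alternatives tried were no filter, DESeq2 1.42.0 (its size factors, or its Wald test), a stricter filter (1 CPM in 3 libraries and 50 counts), the replicate number as a term, fits of 6 libraries and leaving out each library. Library pairs within a group differed by 5.46 to 16.1 times counting noise (chi-square per degree of freedom), so none was treated as a duplicate.

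The members and gene lists were chosen with earlier results of these data known. Described with every library value were called endosomal members of at least 5 CPM, up to 6 called members per direction and comparison, and Rab5a, Rab5b, Rab5c, Rab7, Rab11a, Rab27a, Rab27b, Rab32 and Rab38. Of the regulators, the rule selects up to 3 called genes per direction, class and comparison with at least 5 CPM; 6 of those named have every library value, the others their fold change only. No sequence of Rab proteins was used here, and 1 regulator that the rule selects is not reported here.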

Additional observations from a re-analysis of the deposited data

How the results depend on the processing

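At 24 h the other settings gave 7 to 8 higher and 5 lower members, and leaving out 1 library gave 6 to 8 higher and 4 to 5 lower. At 3 h they gave 6 to 8 higher and 12 lower, and leaving out 1 library 5 to 8 higher (5 without unfed replicate 2) and 11 to 14 lower. Between the fed groups they gave 15 to 18 higher and 9 to 12 lower, and leaving out 1 library 11 to 17 higher and 9 to 13 lower. For regulators and effectors at 24 h, leaving out 1 library gave 23 to 33 higher and 4 to 12 lower genes. No called gene reversed its direction under any alternative. Of the called members, 10 of 12 at 24 h, 16 of 20 at 3 h and 20 of 28 between the fed groups were called under every alternative that tested them, and 1, 2 and 5 further members gained a call under at least 1. Same-numbered libraries of different groups did not deviate together (correlations from −0.16 to 0.058 over 9 pairs). With the replicate number as a block, 7 members were higher and 5 lower at 24 h and 8 and 12 at 3 h, the same counts as without it, and 16 and 12 between the fed groups, where Rab8a lost and Rab1b gained a call. The cause of the losses was not tested. Members under 1 CPM (Rab39b, Rab42) are limited by depth.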
